A study of Arabidopsis thaliana with 33 samples.

Results

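Nuclear genes that encode subunits of both photosystems, part of their light-harvesting antenna and a few neighbouring components of the electron transport chain were examined, 36 genes of the 33557 of the deposited mRNA table. They were taken by gene identifier and comprised 4 genes for the photosystem I antenna (LHCA1 to LHCA4, of which LHCA1 is AT3G54890 and LHCA2 AT3G61470), 5 for the photosystem II antenna (LHCB3, LHCB4.1, LHCB4.2, LHCB5 and LHCB6), 12 for photosystem I subunits, 5 for the oxygen-evolving complex, 5 for other photosystem II subunits, and 5 for plastocyanin (PETE1, PETE2), the Rieske protein (PETC) and ATP synthase (ATPC1, ATPD). All 36 identifiers were listed, all had a value in each genotype and none was listed at 0. The values of the table come from Arabidopsis thaliana of 11 genotypes with 3 libraries each, namely Col-0 as the wild type, 4 mutants with 1 allele each (dcl2-1, dcl4-2, ski2-2 and ein5-1), 4 double mutants that join ein5-1 or ski2-2 to dcl4-2 or to dcl2-1, and 2 triple mutants that join ein5-1 or ski2-2 to both. The labels give an age of 20 days, of which the first 6 were spent on MS medium and the last 14 in soil, and a harvest of the aerial parts at 15:00 for poly(A) RNA sequencing. The labels call the 3 libraries biological replicates and do not say whether they were separate sowings, and no group differs from the others in anything but its alleles as far as the labels go.

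Photosystem II takes electrons from water, and photosystem I passes them to ferredoxin, with the cytochrome b6f complex and plastocyanin in between, while the proton gradient built on the way drives ATP synthase. The reaction centre cores are encoded in the chloroplast. The antenna proteins, the extrinsic subunits and some of the small subunits are encoded in the nucleus and imported. The mRNAs of these nuclear genes are among the most abundant of a green leaf and follow light and the time of day. EIN5 is a cytoplasmic exoribonuclease that degrades decapped mRNA from the 5′ end, SKI2 is a helicase of the complex that feeds mRNA to the exosome for decay from the 3′ end, and DCL4 and DCL2 are Dicers, which process double-stranded RNA to siRNAs, those of DCL2 being the longer.

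The promoters below are shown because the 36 genes moved together across the genotypes. They are the 250 bases before the gene start of 3 genes whose window holds a G-box, LHCA4 (AT3G47470), LHCB4.1 and PSBQ2 (AT4G05180), and of 2 whose window holds none of the motifs searched, PSBR (AT1G79040), the most abundant of the 36 mRNAs, and PSBS (AT1G44575), the one that departed most from the others. The sequences come from the RefSeq genome TAIR10.1, and none of these 5 windows overlaps another annotated gene. Capitals mark every match to CACGTG (the G-box), GATAAG (the I-box), AAAATATCT (the evening element), AAAAATCT (a binding site of the clock protein CCA1) or CCAATC, on either strand.
LHCA4 promoter, chr3:17495034-17495283, minus strand: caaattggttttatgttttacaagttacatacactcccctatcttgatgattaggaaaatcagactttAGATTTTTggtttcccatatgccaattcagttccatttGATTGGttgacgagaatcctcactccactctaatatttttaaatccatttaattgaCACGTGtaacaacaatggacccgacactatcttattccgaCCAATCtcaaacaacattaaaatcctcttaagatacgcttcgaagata
LHCB4.1 promoter, chr5:208616-208865, plus strand: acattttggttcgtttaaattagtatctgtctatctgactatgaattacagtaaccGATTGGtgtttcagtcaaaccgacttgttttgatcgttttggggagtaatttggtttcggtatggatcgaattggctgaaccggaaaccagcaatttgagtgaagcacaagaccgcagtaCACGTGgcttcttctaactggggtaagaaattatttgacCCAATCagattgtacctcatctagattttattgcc
PSBQ2 promoter, chr4:2673244-2673493, minus strand: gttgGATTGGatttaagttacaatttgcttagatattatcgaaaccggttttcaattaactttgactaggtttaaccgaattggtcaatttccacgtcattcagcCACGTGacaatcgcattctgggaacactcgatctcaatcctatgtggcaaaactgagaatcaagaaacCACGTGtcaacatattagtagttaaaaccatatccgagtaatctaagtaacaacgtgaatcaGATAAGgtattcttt
PSBR promoter, chr1:29735702-29735951, plus strand: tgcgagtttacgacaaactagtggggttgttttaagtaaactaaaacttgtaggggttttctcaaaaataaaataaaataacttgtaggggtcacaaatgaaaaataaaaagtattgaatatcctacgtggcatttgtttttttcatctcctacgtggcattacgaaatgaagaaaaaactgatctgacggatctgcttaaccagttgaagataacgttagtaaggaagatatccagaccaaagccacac
PSBS promoter, chr1:16869971-16870220, plus strand: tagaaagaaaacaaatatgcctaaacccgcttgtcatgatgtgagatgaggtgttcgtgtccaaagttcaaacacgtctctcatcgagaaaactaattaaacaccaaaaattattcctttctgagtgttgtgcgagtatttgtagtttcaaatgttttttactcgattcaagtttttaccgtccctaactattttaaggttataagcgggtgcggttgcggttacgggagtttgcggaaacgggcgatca

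The G-box was found in the windows of 8 of the 36 genes (22.2%), against 6.49% of the 27443 windows of this length before nuclear protein-coding genes. An I-box was present in 10 of the 36 (27.8%, against 12.3% of all windows) and CCAATC in 9 (25.0%, against 10.2%). A CCA1 site was found in 3 windows (8.33%, against 6.69%), those of LHCA4, PSAN and PSAO, and an evening element in 1 (2.78%, against 2.36%), that of ATPC1. The windows of 17 of the 36 genes held no match to any of the 5 motifs, no matches overlapped each other, and 20 of the 36 windows ran into a neighbouring gene. A match is only a run of letters, and no binding was measured here. The genes lie on all 5 chromosomes, 14 of them on chromosome 1, 3 on chromosome 2, 6 on chromosome 3, 9 on chromosome 4 and 4 on chromosome 5.

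Levels are FPKM, that is fragments per length of transcript and per size of library, with 1 pooled value per gene and genotype, so no error, SD or n can be attached to a level and the read depth is unknown. The FPKM sum over all genes was lowest in ski2-2 dcl4-2, at 753957, and highest in ein5-1 dcl2-1, at 1352350. Changes between genotypes are given as differences of log2(FPKM + 1). For 8 comparisons the authors' deposited table holds a Cuffdiff test, and changed genes were those with a q-value of at most 0.05, an authors' log2 ratio of at least 1 in size and at least 1 FPKM in a compared genotype. Of the mutated genes, EIN5 stood at 6.88 to 11.2 FPKM in the 4 ein5-1 genotypes and 13.4 to 20.8 in the others, and DCL2 at 1.23 to 2.35 in the 5 dcl2-1 genotypes and 4.89 to 9.02 in the others. Values of DCL4 and SKI2 (AT3G46960) overlapped between carriers and non-carriers, with DCL4 at 2.98 to 4.89 FPKM with dcl4-2 and 3.15 to 6.89 without it, and SKI2 at 2.62 to 3.9 with ski2-2 and 2.82 to 6.91 without it.

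In the wild type these 36 genes made up 15.6% of the whole FPKM sum, and 34 of them were among the 100 most abundant mRNAs. PSBR, which helps dock the oxygen-evolving complex, was the highest of them at 12357 FPKM, and PETE1, the minor plastocyanin copy, the lowest at 621 FPKM, with a median of 5738 FPKM over the 36. The share was 15.8% in dcl4-2, 17.0% in dcl2-1, 16.0% in ein5-1 dcl2-1 and 16.2% in ski2-2 dcl2-1, and lower in ein5-1 at 11.2% and in ski2-2 at 12.2%. It was 2.82% in ein5-1 dcl4-2 and 5.25% in ski2-2 dcl4-2, and 14.7% and 12.5% once dcl2-1 was added to these 2 genotypes. The sum of dcl2-1 lacks LHCB1.3, an abundant antenna gene outside the 36 that the table lists at 0 in dcl2-1 and at 5010.5 to 40528 FPKM elsewhere. In ein5-1 dcl4-2 only 8 of the 36 were still among the 100 most abundant mRNAs, and in ski2-2 dcl4-2 25 were. In whole aerial parts, fewer cells of a type and less RNA per cell cannot be told apart.

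**Figure D1:**
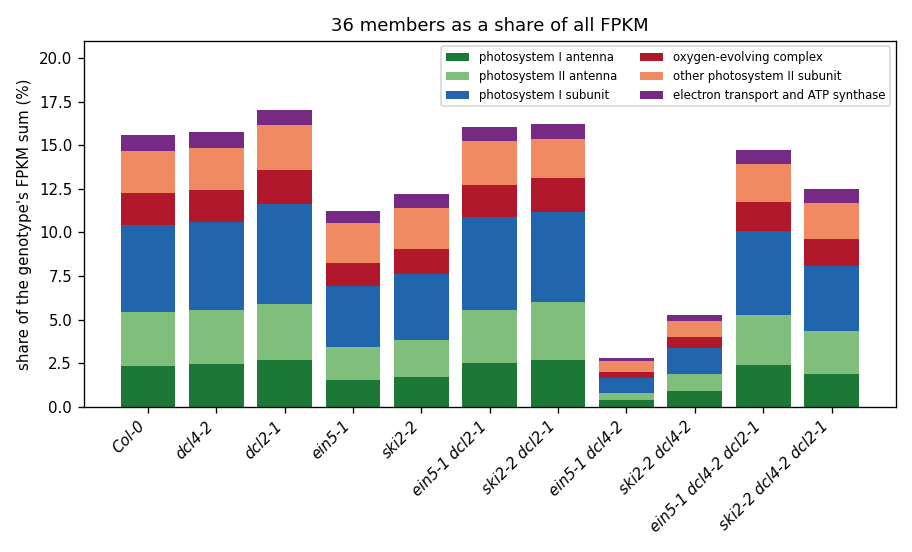
Share of each genotype's FPKM sum taken by the 36 genes, in percent, stacked by role, with 1 pooled value per genotype and no error. The bars of ein5-1 dcl4-2 (2.82%) and ski2-2 dcl4-2 (5.25%) are the lowest, and those of ein5-1 (11.2%) and ski2-2 (12.2%) lie between them and Col-0 (15.6%). Every role has its smallest shares in ein5-1 dcl4-2 and ski2-2 dcl4-2. The other photosystem II subunits take 2.38% in Col-0, 2.31% in ein5-1 and 2.37% in ski2-2.

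Combining ein5-1 with dcl4-2 lowered the mRNA of every one of the 36 genes. By the test in the authors' deposited table all 36 fell against Col-0, where 16.3% of all genes with at least 1 FPKM were called lower. All 36 also fell against ein5-1 (background 14.4%) and against dcl4-2 (background 15.7%). The median difference was -2.89 against Col-0, a level 7.39 times lower, -2.18 against ein5-1 and -2.81 against dcl4-2, while the median over all genes was 0.13, 0.07 and 0.14. These 3 comparisons share the ein5-1 dcl4-2 libraries. All 36 q-values in the authors' deposited table were 0.000201 in each of the 3, the smallest value that the test gave, which it gave to 9235 genes in the comparison with Col-0. Abundant mRNAs were often called lower: of 355 genes with a mean of at least 400 FPKM over the genotypes, 174 (49.0%) fell against Col-0 in the authors' deposited table, with that limit chosen after the values were seen. Here and below, that set was drawn from all genes and so takes in genes of the 36, which raises its share. The share of such genes called lower was 46.0% against ein5-1 and 48.3% against dcl4-2. All 36 differences stayed below 0 in each of the 3 comparisons under quantile normalization, median-of-ratios scaling and scaling to equal FPKM sums, which put the median against Col-0 at -2.44, -2.98 and -2.52.

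Among the antenna genes of photosystem I, whose products pass excitation to its core, LHCA1 differed most from Col-0 in ein5-1 dcl4-2 and LHCA2 least. LHCA1 stood at 8506 FPKM in Col-0, 8062 in dcl4-2 and 9166 in dcl2-1, at 3978 in ein5-1 and 4629 in ski2-2, at 9202 in ein5-1 dcl2-1 and 8395 in ski2-2 dcl2-1, at 799 in ein5-1 dcl4-2 and 1343 in ski2-2 dcl4-2, and at 7940.4 and 4802 in the triple mutants of ein5-1 and ski2-2. The difference of ein5-1 dcl4-2 from Col-0 was -3.41. The level of LHCA2 was 5857 FPKM in Col-0, 5638 in dcl4-2, 7509 in dcl2-1, 3726 in ein5-1, 3957 in ski2-2, 7420.3 in ein5-1 dcl2-1 and 7372 in ski2-2 dcl2-1, while ein5-1 dcl4-2 had 897, ski2-2 dcl4-2 had 1558 and their triple mutants had 6072 and 4226. Here the difference was -2.71, and both genes had their lowest levels in ein5-1 dcl4-2 and their next lowest in ski2-2 dcl4-2. LHCA3 and LHCA4 lay between the other two with differences of -2.83 and -2.94.

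The antenna genes of photosystem II dropped the most as a role, with a median of -3.10. LHCB6 (AT1G15820) encodes CP24, a monomeric antenna protein that links an outer trimer to the core, and LHCB4.1 (AT5G01530) and LHCB4.2 (AT3G08940) are copies for CP29, another monomeric linker. For LHCB6, ein5-1 dcl4-2 had 810.1 FPKM and ski2-2 dcl4-2 had 1224, against 9098 in Col-0, 8361 in dcl4-2, 8632 in dcl2-1, 4060.2 in ein5-1, 4636 in ski2-2, 9133 in ein5-1 dcl2-1, 8872 in ski2-2 dcl2-1, and 7729 and 5401 in the ein5-1 and ski2-2 triple mutants. Its difference from Col-0 was -3.49 in ein5-1 dcl4-2. LHCB4.2 stood at 4998 FPKM in Col-0, 4726 in dcl4-2 and 4712 in dcl2-1, at 3126 in ein5-1 and 3570.5 in ski2-2, at 4899 in ein5-1 dcl2-1 and 5009.5 in ski2-2 dcl2-1, at 596 in ein5-1 dcl4-2 and 1343 in ski2-2 dcl4-2, and at 3786 and 4062 in the triple mutants of ein5-1 and ski2-2. The level of LHCB4.1 was 7425 FPKM in Col-0, 6867 in dcl4-2, 7087 in dcl2-1, 3231 in ein5-1, 3502 in ski2-2, 7288 in ein5-1 dcl2-1 and 7390.2 in ski2-2 dcl2-1, while ein5-1 dcl4-2 had 868, ski2-2 dcl4-2 had 1518 and their triple mutants had 6090.5 and 3848. LHCB4.1 and LHCB4.2 had nearly the same difference in ein5-1 dcl4-2 (-3.10 and -3.07), whereas in ein5-1 the first was -1.20 and the second -0.68. LHCB5, which encodes CP26, went from 8641 FPKM in Col-0 to 882, and LHCB3, a component of the outer trimer, from 8406 to 1000.5.

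Photosystem I subunits spanned the widest range of differences from Col-0 in ein5-1 dcl4-2, from -4.00 to -1.90 with a median of -2.99. Both extremes belong to the stromal ridge, where ferredoxin docks: PSAD2 (AT1G03130) is the minor copy for PsaD and PSAE2 (AT2G20260) the minor copy for PsaE. For PSAD2, ein5-1 dcl4-2 had 197 FPKM and ski2-2 dcl4-2 had 416, against 3158 in Col-0, 3046 in dcl4-2, 3013 in dcl2-1, 1608 in ein5-1, 1972 in ski2-2, 2896 in ein5-1 dcl2-1, 2441 in ski2-2 dcl2-1, and 2328 and 1777 in the ein5-1 and ski2-2 triple mutants. PSAD2 had the widest span of the 36 genes over the genotypes, with a highest level 16.0 times its lowest. PSAE2 stood at 1598 FPKM in Col-0, 1461 in dcl4-2 and 2528 in dcl2-1, at 1021 in ein5-1 and 1072 in ski2-2, at 2356 in ein5-1 dcl2-1 and 2076 in ski2-2 dcl2-1, at 428 in ein5-1 dcl4-2 and 481 in ski2-2 dcl4-2, and at 1843 and 989.9 in the triple mutants of ein5-1 and ski2-2. PSAE2 was highest in dcl2-1 and the 2 double mutants that pair dcl2-1 with ein5-1 or ski2-2. PSAF, whose product guides plastocyanin to the reaction centre, had a difference of -3.36, and PSAN, a lumenal subunit at the same site, one of -2.98. Of the subunits at which the mobile antenna docks, PSAL (-2.47), PSAH1 (-2.07), PSAH2 (-2.77) and PSAO (-3.00) differed from Col-0 by unequal amounts. PSAG and PSAK, which flank the antenna belt, differed by -3.00 and -3.13.

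The oxygen-evolving complex shields the manganese cluster that splits water, with PSBO next to the cluster and PSBP and PSBQ outside it. The level of PSBQ1 was 4521 FPKM in Col-0, 3995 in dcl4-2, 3886 in dcl2-1, 2770.2 in ein5-1, 2975 in ski2-2, 4039 in ein5-1 dcl2-1 and 4001 in ski2-2 dcl2-1, while ein5-1 dcl4-2 had 406, ski2-2 dcl4-2 had 449 and their triple mutants had 3301 and 3345. For PSBO1, ein5-1 dcl4-2 had 1144 FPKM and ski2-2 dcl4-2 had 1794, against 6612 in Col-0, 6367 in dcl4-2, 7131 in dcl2-1, 4177 in ein5-1, 4596 in ski2-2, 7131 in ein5-1 dcl2-1, 6706 in ski2-2 dcl2-1, and 5778 and 4697 in the ein5-1 and ski2-2 triple mutants. PSBQ1 (AT4G21280) had the largest difference of this role in ein5-1 dcl4-2 at -3.47 and PSBO1 (AT5G66570) the smallest at -2.53. PSBP1, for the single PsbP of this group, went from 5986 FPKM in Col-0 to 722, a difference of -3.05.

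The remaining photosystem II subunits showed the smallest differences as a role, with a median of -2.41. PSBR stood at 12357 FPKM in Col-0, 11724 in dcl4-2 and 14522 in dcl2-1, at 11894 in ein5-1 and 11692 in ski2-2, at 15891 in ein5-1 dcl2-1 and 12304 in ski2-2 dcl2-1, at 3204 in ein5-1 dcl4-2 and 3485 in ski2-2 dcl4-2, and at 11882 and 10265 in the triple mutants of ein5-1 and ski2-2. PSBR was the highest of the 36 genes in both dcl4-2 double mutants too, with a difference of -1.95 in ein5-1 dcl4-2 that was -0.32 under quantile normalization. For PSBX, ein5-1 dcl4-2 had 1059 FPKM and ski2-2 dcl4-2 had 1019, against 6840.4 in Col-0, 6262 in dcl4-2, 8000.4 in dcl2-1, 5070.1 in ein5-1, 5144 in ski2-2, 7595 in ein5-1 dcl2-1, 5737 in ski2-2 dcl2-1, and 6204 and 3907 in the ein5-1 and ski2-2 triple mutants. PSBX, a small membrane subunit, had the largest difference of this role at -2.69. PSBW, which stabilises the supercomplex with the antenna, differed by -2.41, PSBY by -2.66 and PSBS, the sensor of lumen acidity for energy dissipation, by -2.38.

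Downstream of photosystem II, the major plastocyanin copy PETE2 (AT1G20340) differed most and PETC (AT4G03280) least in ein5-1 dcl4-2. The level of PETE2 was 5618 FPKM in Col-0, 4972 in dcl4-2, 5333 in dcl2-1, 3404 in ein5-1, 3872 in ski2-2, 5127 in ein5-1 dcl2-1 and 4706 in ski2-2 dcl2-1, while ein5-1 dcl4-2 had 553, ski2-2 dcl4-2 had 893 and their triple mutants had 4229 and 4028. Its difference from Col-0 was -3.34. PETC stood at 2221 FPKM in Col-0, 1989.9 in dcl4-2 and 1949 in dcl2-1, at 1953 in ein5-1 and 1943 in ski2-2, at 1881 in ein5-1 dcl2-1 and 1908 in ski2-2 dcl2-1, at 456 in ein5-1 dcl4-2 and 523 in ski2-2 dcl4-2, and at 1772 and 1838 in the triple mutants of ein5-1 and ski2-2. PETC, the Rieske iron-sulfur protein of the cytochrome b6f complex, had the narrowest span of the 36 genes, 4.87 times from lowest to highest, and a difference of -2.28. The gamma subunit gene ATPC1 and the delta subunit gene ATPD of ATP synthase differed by -2.41 and -3.09.

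**Figure D2:**
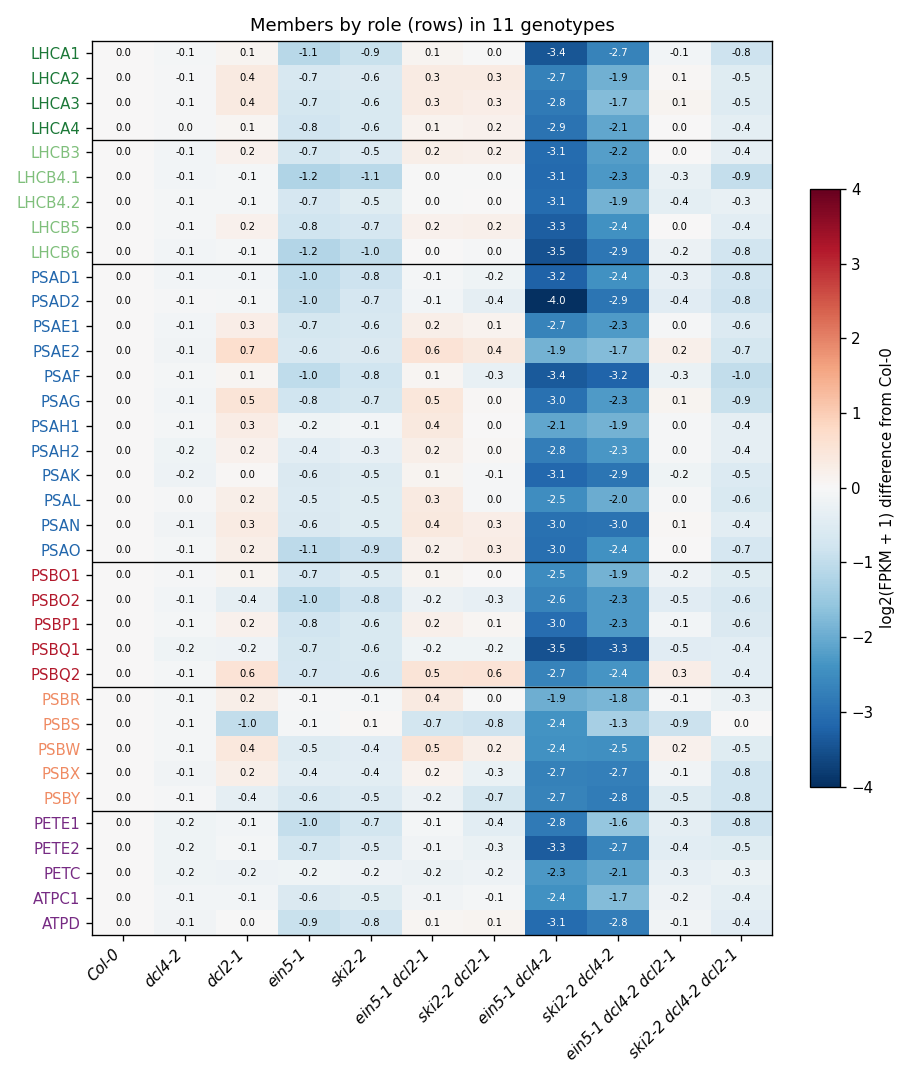
Difference of log2(FPKM + 1) from Col-0 for each of the 36 genes (rows, grouped and coloured by role) in the 11 genotypes (columns), from 1 pooled value each. The ein5-1 dcl4-2 column runs from -4.00 (PSAD2) to -1.90 (PSAE2) and the ski2-2 dcl4-2 column from -3.33 (PSBQ1) to -1.33 (PSBS), while dcl4-2 stays between -0.21 and -0.04.

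Combining ski2-2 with dcl4-2 lowered the same mRNAs, by less than ein5-1 dcl4-2 for 33 of the 36. In the authors' deposited table all 36 fell against Col-0 (background 13.8%) and against dcl4-2 (background 13.1%), and 35 fell against ski2-2 (background 13.5%). The median difference was -2.28 against Col-0, -1.71 against ski2-2 and -2.17 against dcl4-2, and that against Col-0 kept its direction for all 36 genes except under quantile normalization, where LHCA2, LHCA3 and PSBS turned positive and the median was -1.0. Under the same normalization LHCA3, LHCB4.1 and LHCB4.2 turned positive against ski2-2, LHCA3 and PSBS turned positive against dcl4-2, and the calls numbered 18 against Col-0, 13 against ski2-2 and 19 against dcl4-2. The backgrounds above are for the deposited values, and none is given for this normalization. The gene that was not called against ski2-2 was PETE1 (AT1G76100), with 210.0 FPKM in ski2-2 dcl4-2 and 371 in ski2-2, a difference of -0.82, although its q-value in the authors' deposited table passed. All q-values of the 36 genes in these comparisons were 0.000211 in the authors' deposited table, again the smallest that it gave. Abundant mRNAs were often called lower here too. Of genes with a mean of at least 400 FPKM, 54.1% fell against Col-0, 47.6% against ski2-2 and 50.7% against dcl4-2.

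The roles were closer together in ski2-2 dcl4-2 than in ein5-1 dcl4-2, with medians against Col-0 from -2.46 for the other photosystem II subunits to -1.99 for the photosystem I antenna. PSBQ1 had the largest difference at -3.33, followed by PSAF at -3.19 and PSAN at -2.96. PSBS had the smallest at -1.33, followed by PETE1 at -1.56, LHCA3 at -1.72 and PSAE2 at -1.73. Set directly against each other, with no test in the table, ein5-1 dcl4-2 was at least 2-fold below ski2-2 dcl4-2 for 5 of the 36 (LHCA3, LHCB4.2, PSAD2, PSBS and PETE1), where 6.91% of all genes were that much lower, and the median difference was -0.59. That count rested on the scaling, being 22 of 36 with a median of -1.50 under quantile normalization and 17 with a median of -0.95 under equal FPKM sums. The median over all genes was -0.10 and -0.26 under these scalings, in the same order. No share of all genes is given for them, and the 6.91% holds for the deposited values only. The 3 genes that lay lower in ski2-2 dcl4-2 were PSBW, PSBX and PSBY, by at most 0.13, and all 3 were higher there under quantile normalization and under equal FPKM sums.

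Adding dcl2-1 brought the mRNAs back up. In the authors' deposited table all 36 rose in ein5-1 dcl4-2 dcl2-1 against ein5-1 dcl4-2, where 16.4% of all genes were called higher, and 35 rose in ski2-2 dcl4-2 dcl2-1 against ski2-2 dcl4-2, where 13.7% were. Of genes with a mean of at least 400 FPKM, 48.0% were called higher in the first comparison and 47.6% in the second. The median differences of the 36 genes were 2.86 and 1.73, and PETE1 (0.73) was the gene not called in the second. Under quantile normalization 15 genes were called higher in the second comparison, its median was 0.64, and LHCA3, LHCB4.1 and PSAL turned negative. PSAD2, the gene with the largest drop, also had the largest gain in ein5-1 dcl4-2 dcl2-1, at 3.56, and PSBQ1 had it in ski2-2 dcl4-2 dcl2-1, at 2.90. These gains start from the same double-mutant libraries as the losses above, so their sizes are not independent of them.

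Compared with Col-0, with no test in the table, no gene of the 36 was 2-fold lower in either triple mutant, where 3.54% of all genes were in that of ein5-1 and 2.64% in that of ski2-2. The median difference was -0.13 in ein5-1 dcl4-2 dcl2-1, and -0.51 in ski2-2 dcl4-2 dcl2-1. Under quantile normalization the first was 0.02 and the second -0.08, and under equal FPKM sums -0.10 and -0.28. PSAF (-0.97), LHCB4.1 (-0.95) and PSAG (-0.88) lay furthest below Col-0 in ski2-2 dcl4-2 dcl2-1, and PSBS (-0.86) did so in ein5-1 dcl4-2 dcl2-1.

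**Figure D3:**
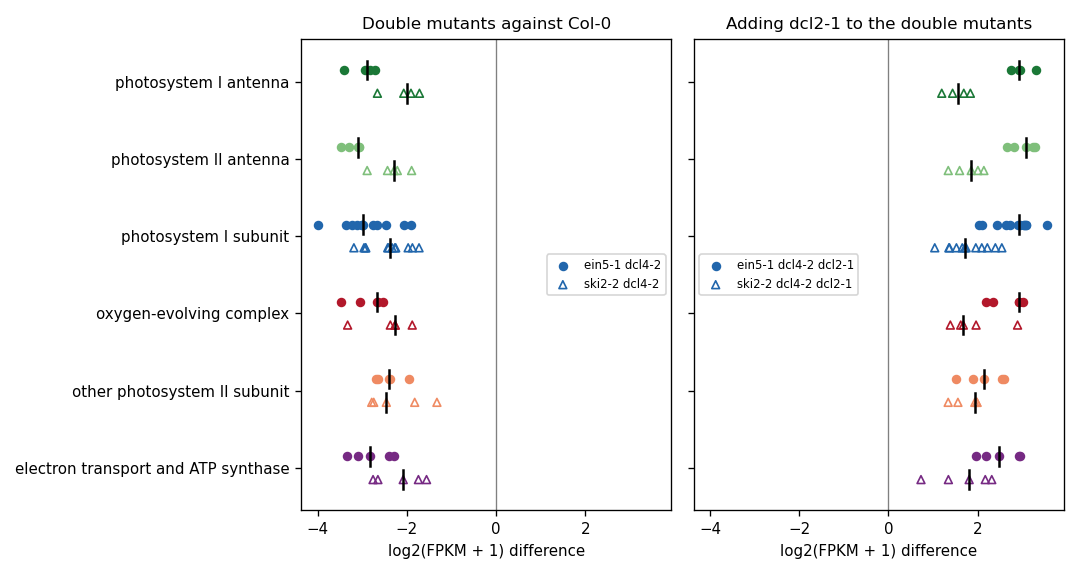
Difference of log2(FPKM + 1) of each gene by role, with ein5-1 genotypes as filled circles, ski2-2 genotypes as open triangles and the role's median as a black bar; left, double mutants against Col-0, and right, triple mutants against the double mutants. All points lie below 0 on the left (medians over the 36 genes -2.89 and -2.28) and above 0 on the right (2.86 and 1.73).

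The single mutants had far smaller differences, none of them tested in the table. In dcl4-2 the median was -0.09 and no gene of the 36 was 2-fold lower (background 0.468%), and the sign was not stable, since the median was 0.02 under equal FPKM sums and 0.03 under quantile normalization. In ein5-1 the median was -0.71 and 7 genes were at least 2-fold lower (background 3.43%): LHCA1, LHCB4.1, LHCB6, PSAD1, PSAF, PSAO and PSBO2. In ski2-2 it was -0.59 with only LHCB4.1 past 2-fold (background 2.66%), and under either of the other 2 scalings, quantile normalization or equal FPKM sums, no gene of the 36 was 2-fold lower in ein5-1 or in ski2-2. All 36 genes lay below Col-0 in ein5-1 as deposited, of which 5 lay above it under quantile normalization (PSAK, PSAL, PSBR, PSBS and PSBX) and 4 under equal FPKM sums. ein5-1 was the third lowest genotype for 27 of the 36 genes, after both dcl4-2 double mutants.

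On the scale of the deposited values the double mutants lay below what the single mutants add up to. In ein5-1 dcl4-2 the median difference from Col-0 was -2.89, against -0.79 for the sum of the ein5-1 and dcl4-2 differences, and the shortfall ran from -2.97 (PSAD2) to -1.12 (PSAE2). In ski2-2 dcl4-2 the median was -2.28 against a sum of -0.70, with a shortfall from -2.55 (PSBQ1) to -0.66 (PETE1). Under quantile normalization dcl4-2 against Col-0 ran from -0.06 to 0.17. There ein5-1 dcl4-2 against ein5-1 ran from -3.035 to -1.16, so every gene kept its shortfall. With that scaling ski2-2 dcl4-2 against ski2-2 ran from -2.09 to 0.33, so not every gene did. No test of this interaction could be made from pooled values.

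In the wild-type background the differences that went with dcl2-1 had different signs in different members. The median difference of dcl2-1 from Col-0 was 0.11 and no gene was 2-fold lower (background 4.16%), with PSAE2 at 0.66, PSBQ2 at 0.55 and PSBS at -0.98. No gene was 2-fold lower in ein5-1 dcl2-1 (median 0.13, background 4.89%) or in ski2-2 dcl2-1 (median 0.00, background 4.04%) against Col-0. Against ein5-1, ein5-1 dcl2-1 was at least 2-fold higher for 10 of the 36 genes (median 0.93, background 8.41%), and against ski2-2, ski2-2 dcl2-1 was so for 3, LHCB4.1, PSAO and PSBQ2 (median 0.60, background 7.96%). These last comparisons were added after the values were seen, and under equal FPKM sums or quantile normalization the counts were 0 of 36 in the first and 1 of 36 in the second.

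Where a subunit has a pair of copies, the copies did not always move by the same amount. Reads of near-identical copies can be shared out between them by the authors' software, so their split is less certain than their sum. The level of PSAD1 was 5915 FPKM in Col-0, 5531 in dcl4-2, 5428 in dcl2-1, 2951 in ein5-1, 3313 in ski2-2, 5663 in ein5-1 dcl2-1 and 5236 in ski2-2 dcl2-1, while ein5-1 dcl4-2 had 633, ski2-2 dcl4-2 had 1096 and their triple mutants had 4744 and 3455. The PSAD1 to PSAD2 ratio was 1.68 to 2.15 in the genotypes other than the dcl4-2 double mutants, 3.21 in ein5-1 dcl4-2 and 2.64 in ski2-2 dcl4-2. For PSAE1, ein5-1 dcl4-2 had 1027 FPKM and ski2-2 dcl4-2 had 1358, against 6565 in Col-0, 6062 in dcl4-2, 7907 in dcl2-1, 3994 in ein5-1, 4201 in ski2-2, 7785 in ein5-1 dcl2-1, 7235 in ski2-2 dcl2-1, and 6350.1 and 4454 in the ein5-1 and ski2-2 triple mutants. The PSAE1 to PSAE2 ratio went the other way, from 4.11 in Col-0 to 2.4 in ein5-1 dcl4-2 and 2.82 in ski2-2 dcl4-2. It was also lower than in Col-0 in dcl2-1 (3.13), ein5-1 dcl2-1 (3.31), ski2-2 dcl2-1 (3.49) and the ein5-1 triple mutant (3.45). In ein5-1 and ski2-2 it lay slightly below Col-0 as well. Under quantile normalization, which does not keep ratios within a genotype, this pair had its highest ratio, 5.39, in ski2-2 dcl4-2.

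PETE1 stood at 621 FPKM in Col-0, 556 in dcl4-2 and 572 in dcl2-1, at 320.4 in ein5-1 and 371 in ski2-2, at 593 in ein5-1 dcl2-1 and 464 in ski2-2 dcl2-1, at 87.1 in ein5-1 dcl4-2 and 210.0 in ski2-2 dcl4-2, and at 487 and 349 in the triple mutants of ein5-1 and ski2-2. PETE2 exceeded PETE1 by 9.04 times in Col-0, 6.34 in ein5-1 dcl4-2, 4.25 in ski2-2 dcl4-2 and 11.5 in ski2-2 dcl4-2 dcl2-1, with the lowest ratio of the 11 genotypes in ski2-2 dcl4-2 and the highest in its triple mutant. The minor plastocyanin copy thus differed less from Col-0 than the major copy in both dcl4-2 double mutants. For PSBQ2, ein5-1 dcl4-2 had 509 FPKM and ski2-2 dcl4-2 had 623, against 3229 in Col-0, 3045 in dcl4-2, 4730.2 in dcl2-1, 2031 in ein5-1, 2085 in ski2-2, 4653 in ein5-1 dcl2-1, 4736 in ski2-2 dcl2-1, and 3857 and 2435 in the ein5-1 and ski2-2 triple mutants. PSBQ1 was the more abundant copy of its pair in Col-0 at 1.4 times PSBQ2 and the less abundant one in 6 genotypes, namely ein5-1 dcl4-2 (0.798), ski2-2 dcl4-2 (0.72), dcl2-1 (0.822), ski2-2 dcl2-1 (0.845), ein5-1 dcl2-1 (0.868) and the ein5-1 triple mutant (0.856).

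The level of PSAH1 was 2787 FPKM in Col-0, 2651 in dcl4-2, 3400.4 in dcl2-1, 2485 in ein5-1, 2583 in ski2-2, 3646 in ein5-1 dcl2-1 and 2805 in ski2-2 dcl2-1, while ein5-1 dcl4-2 had 663, ski2-2 dcl4-2 had 758 and their triple mutants had 2703 and 2183. For PSAH2, ein5-1 dcl4-2 had 537 FPKM and ski2-2 dcl4-2 had 727, against 3666 in Col-0, 3255 in dcl4-2, 4169.9 in dcl2-1, 2744 in ein5-1, 2909.9 in ski2-2, 4279 in ein5-1 dcl2-1, 3760.4 in ski2-2 dcl2-1, and 3549 and 2832 in the ein5-1 and ski2-2 triple mutants. PSAH1 stood below PSAH2 in Col-0, with a ratio of 0.76, and above it in ein5-1 dcl4-2 (1.24) and ski2-2 dcl4-2 (1.04), the only genotypes of the 11 where it did. PSBO2 stood at 2401 FPKM in Col-0, 2207 in dcl4-2 and 1867 in dcl2-1, at 1200.1 in ein5-1 and 1338 in ski2-2, at 2036 in ein5-1 dcl2-1 and 1905 in ski2-2 dcl2-1, at 383 in ein5-1 dcl4-2 and 499 in ski2-2 dcl4-2, and at 1752 and 1536 in the triple mutants of ein5-1 and ski2-2. PSBO1 exceeded PSBO2 by 2.75 to 3.82 times, with Col-0 lowest and dcl2-1 highest. The LHCB4.1 to LHCB4.2 ratio was 1.49 in Col-0 and 1.46 in ein5-1 dcl4-2, and nearer 1 in ein5-1 (1.03), ski2-2 (0.981), ski2-2 dcl4-2 (1.13) and ski2-2 dcl4-2 dcl2-1 (0.948).

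**Figure D4:**
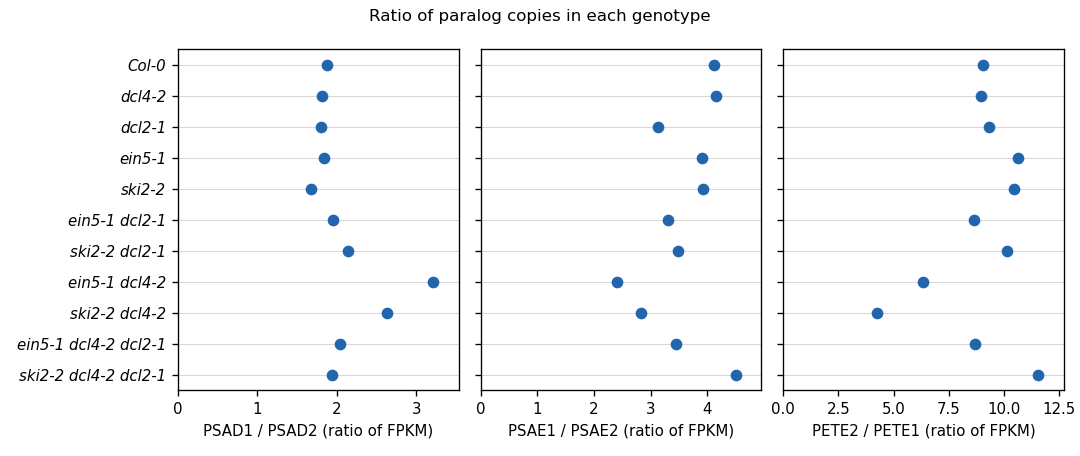
Ratio of FPKM of the copies of PsaD, PsaE and plastocyanin in each of the 11 genotypes, from 1 pooled value each, on linear axes from 0. In ein5-1 dcl4-2 and ski2-2 dcl4-2 PSAD1 / PSAD2 is highest (3.21 and 2.64), PSAE1 / PSAE2 lowest (2.40 and 2.82) and PETE2 / PETE1 lowest (6.34 and 4.25).

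Apart from these shifts the 36 genes followed 1 pattern over the genotypes. Pearson's r of a gene's log2(FPKM + 1) with the median of the other members over the 11 genotypes had a median of 0.986 and was above 0.95 for 34 genes. It is given as a description, since the points share their libraries and are spread mainly by the 2 dcl4-2 double mutants. The 3 genes least like the rest were PSBS (0.669), PETC (0.944) and PSBY (0.952). For PSBY, ein5-1 dcl4-2 had 459 FPKM and ski2-2 dcl4-2 had 419, against 2906 in Col-0, 2800.5 in dcl4-2, 2269.9 in dcl2-1, 1859.6 in ein5-1, 1986 in ski2-2, 2453 in ein5-1 dcl2-1, 1781 in ski2-2 dcl2-1, and 2024 and 1662 in the ein5-1 and ski2-2 triple mutants. PSBY differed from Col-0 by -0.71 in ski2-2 dcl2-1 and -0.36 in dcl2-1, below the median of the members in each.

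PSBS followed the common pattern least. PSBS stood at 3051 FPKM in Col-0, 2866 in dcl4-2 and 1543 in dcl2-1, at 2918 in ein5-1 and 3171 in ski2-2, at 1816 in ein5-1 dcl2-1 and 1716 in ski2-2 dcl2-1, at 585 in ein5-1 dcl4-2 and 1215 in ski2-2 dcl4-2, and at 1677 and 3076 in the triple mutants of ein5-1 and ski2-2. It was about as high in ein5-1, ski2-2 and ski2-2 dcl4-2 dcl2-1 as in Col-0, and lower in the other 4 genotypes that carry dcl2-1. Adding dcl2-1 therefore went with less PSBS in Col-0 (-0.98), ein5-1 (-0.68) and ski2-2 (-0.89), none of them tested, whereas PSBS rose in the authors' deposited table on adding it to ein5-1 dcl4-2 (a difference of 1.52) and to ski2-2 dcl4-2 (1.34). The signs were the same under all 3 other scalings, but the size of the last was not, since on adding dcl2-1 to ski2-2 dcl4-2 the difference was 0.17 under quantile normalization and 0.84 under equal FPKM sums, both short of 2-fold.

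Genes of the circadian clock are given beside it. CCA1, a clock gene with a morning peak, stood at 179.9 FPKM in ein5-1, 170.2 in ski2-2, 165 in the ski2-2 triple mutant, 102 in Col-0 and 85.5 in dcl4-2, but at 3.32 in dcl2-1, 5.14 in ein5-1 dcl2-1, 6.74 in ski2-2 dcl2-1 and 9.34 in ein5-1 dcl4-2 dcl2-1. PRR5, which peaks later in the day, was at 18.3 FPKM in ein5-1 dcl4-2 dcl2-1 and 31.1 in dcl2-1, and at most 0.568 in ein5-1, ski2-2, the ski2-2 triple mutant, dcl4-2 and Col-0. In ein5-1 dcl4-2 both were present, CCA1 at 69.3 and PRR5 at 11.9 FPKM, as they were in ski2-2 dcl4-2 with 80.0 and 12.7. All plants are labelled as collected at the same hour. The part of clock phase in the values of PSBS and of the other 35 genes was not tested.

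**Figure D5:**
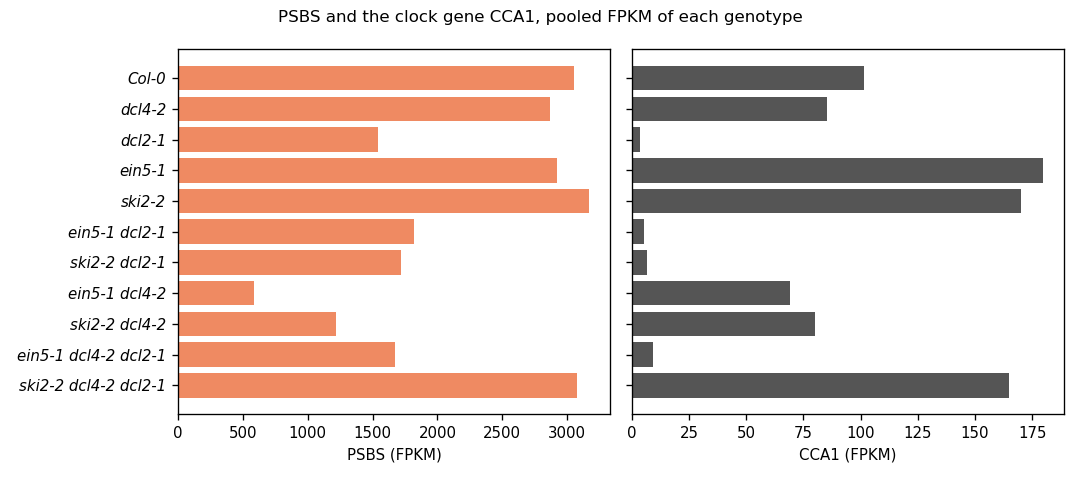
Pooled FPKM of PSBS (left) and of the clock gene CCA1 (right) in each genotype, on linear axes from 0 and without error. PSBS lies between 1543 and 1816 FPKM in dcl2-1, ein5-1 dcl2-1, ski2-2 dcl2-1 and ein5-1 dcl4-2 dcl2-1, where CCA1 lies between 3.32 and 9.34 FPKM, and between 2866 and 3171 FPKM in ein5-1, ski2-2, the ski2-2 triple mutant, dcl4-2 and Col-0, where CCA1 lies between 85.5 and 179.9 FPKM. PSBS is lowest in ein5-1 dcl4-2 (585 FPKM, CCA1 69.3) and next lowest in ski2-2 dcl4-2 (1215 FPKM, CCA1 80.0).

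The genes around these 36 in the same pathway were mostly lower in the dcl4-2 double mutants too. Of all genes with at least 1 FPKM, 16.3% were called lower in ein5-1 dcl4-2 and 13.8% in ski2-2 dcl4-2 against Col-0. All 8 copies for LHCB1 and LHCB2, the bulk trimeric antenna, fell in ein5-1 dcl4-2 and in ski2-2 dcl4-2 against Col-0 in the authors' deposited table, with 5 of the 8 below 0 in the second under quantile normalization, where 4 were called, and 5 called under equal FPKM sums. Calls under another scaling keep the authors' q-value and take their size from the rescaled log2(FPKM + 1) difference, and no share of all genes is given for them. The largest drops in ein5-1 dcl4-2 were those of LHCB2.3 (-5.46), LHCB2.2 (-3.59), LHCB1.2 (-3.52) and LHCB1.4 (-3.22), of which LHCB2.3 went from 3600.4 FPKM to 80.6. The caution on reads shared out between copies holds for these genes too. LHCB1.4 stood at 388 FPKM in ein5-1 dcl4-2, 550 in ein5-1 and 9470 in dcl2-1, the genotype where LHCB1.3 was listed at 0. Of 13 further antenna and subunit genes, 11 fell in ein5-1 dcl4-2 and 10 in ski2-2 dcl4-2 in the authors' deposited table and none rose, while under equal FPKM sums 12 and 10 of the 13 lay below 0 and 10 and 7 were called. The largest drops were those of LHCB4.3 (-4.77), the remaining CP29 copy, LHCA6 (-3.65), PSB27 (-3.11) and PSBTN (-2.90). LHCB4.3 was low in dcl2-1 as well, at 72.2 FPKM against 362 in Col-0, as PSBS was. So were other genes of the lists here and in the next paragraph. Among them were FD1 (582 against 1390 FPKM), ZEP (138 against 365), HCF173 (83.3 against 161) and LHCB7 (7.56 against 23.3). Others were higher in dcl2-1, such as FNR2 (944 against 418 FPKM).

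On the acceptor side of photosystem I, 5 of 7 genes for ferredoxin, its reductase and cyclic flow fell in ein5-1 dcl4-2 and 6 in ski2-2 dcl4-2 in the authors' deposited table. Of all genes 16.3% were called lower in ein5-1 dcl4-2 and 13.8% in ski2-2 dcl4-2. FD2, the main leaf ferredoxin (-3.01), the reductase genes FNR1 (-2.10) and FNR2 (-2.03) and PGRL1A (-1.92), a component of cyclic flow, had the largest differences in the first. Calls in ski2-2 dcl4-2 dropped to 2 of the 7 under quantile normalization and under equal FPKM sums, with the median at -0.89 and -0.68 in place of -1.40. Of 13 genes for antenna targeting and photosystem assembly, 11 and 9 fell in the authors' deposited table, led in ein5-1 dcl4-2 by LTD (-2.60) and CPSRP43 (-2.40), which guide antenna proteins through the stroma, and by PAM68 (-2.35) and HCF136 (-1.94), assembly factors of photosystem II. In ski2-2 dcl4-2, 6 of these 13 were called lower under quantile normalization and 2 under equal FPKM sums, where the median was -0.56 in place of -1.27. Of 8 genes for light acclimation 5 fell in each in the authors' deposited table, led by CURT1B (-2.87) and CURT1A (-2.44), which curve thylakoid membranes, NPQ1 (-1.62) and the kinase gene STN8 (-1.59), with 6 of the 8 below 0 and 2 called in ski2-2 dcl4-2 under equal FPKM sums, where the median was -0.46 in place of -1.16. Of 6 regulators of greening, GUN4 (-2.35), GLK2 (-1.59) and GNC (-1.10) fell in ein5-1 dcl4-2, and in ski2-2 dcl4-2 as well, in the authors' deposited table. Under equal FPKM sums 2 of the 6 were called lower in ein5-1 dcl4-2, and in ski2-2 dcl4-2 none was called lower and 1 was called higher. HY5, a light-response transcription factor, rose in ein5-1 dcl4-2 in the authors' deposited table, from 15.5 to 32.7 FPKM, a call that was lost under quantile normalization and median-of-ratios scaling. List medians in ein5-1 dcl4-2 against Col-0 were -3.14 for the LHCB1 and LHCB2 copies, -2.03 for the further subunits, -1.92 for the ferredoxin side, -1.70 for targeting and assembly, -1.46 for light acclimation and -0.95 for the regulators, beside -2.89 for the 36 genes and 0.13 for all genes.

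Markers of other cell types were measured beside these changes. The summed level of 5 root markers was 41.1 FPKM in Col-0, 267 in ein5-1 dcl4-2 and 757 in ski2-2 dcl4-2, and 15.9 to 75.4 in the other genotypes, and PYK10 made up 254 and 673 FPKM of the sums of the 2 double mutants. The root iron transporter gene IRT1 was at 0.253 FPKM in Col-0, 1.09 in ein5-1 dcl4-2 and 60.6 in ski2-2 dcl4-2. Of the 5 root markers, 3 rose in ein5-1 dcl4-2 and 4 in ski2-2 dcl4-2 against Col-0 in the authors' deposited table, where 20.4% and 15.1% of all genes were called higher. The summed level of 3 guard cell markers was 39.8 FPKM in Col-0, 17.1 in ein5-1 dcl4-2 and 8.99 in ski2-2 dcl4-2, with none at 0. That of 5 flower markers was 14.9, 3.97 and 5.30 FPKM in the same order, with SEP2 listed at 0 in ein5-1 dcl4-2. In ski2-2 dcl4-2 FUL was higher than in Col-0, at 4.09 against 3.53 FPKM, while AP3, PI, SEP1 and SEP2 were lower. The sum of 2 phloem markers was 162, 105 and 193 FPKM. These 2 differed in direction, with SUC2 at 153, 89.5 and 187 FPKM and SULTR2;2 at 9.30, 15.4 and 6.12 FPKM. The part of tissue makeup in the values of the 36 genes was not tested.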

How the data were processed

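The 11 genotypes of 3 libraries each were grouped by the genotype labels. TopHat2 2.1.1, Cuffdiff (its version is not given in the sources used here) and the build TAIR10 are named in the submitters' processing notes. FPKM in the deposited table are pooled by the authors over a genotype's libraries, and log2 ratios, p-values and q-values are those of their test for 8 comparisons. Read depth is not recoverable, so the planned fit on library values could not be made and no error is given. Calls used q of at most 0.05, an authors' log2 ratio of at least 1 and 1 FPKM in a compared genotype. The 9 untested comparisons, and 2 added later, used a log2(FPKM + 1) difference of at least 1. All 36 members are described, with values in every genotype for those at the extremes of a role, in a pair of copies, least like the rest or not called, and of other lists up to 4 largest changes are named. The members and lists were chosen with earlier results of these data known. Promoter windows were read by gene start in TAIR10.1, whose coordinates were not joined to any in the table. Names matched for 36 of 36 members and 74 of 79 list genes. Alternatives were other pseudocounts, minimums and scalings. Code used matplotlib 3.10.9, pandas 2.3.3 and numpy 2.4.6 under Python 3.11.15 and was tested on simulated data.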

Additional observations from a re-analysis of the deposited data

Results flagged for a closer look

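PSBS is listed here because the dcl2-1 allele went with differences of opposite sign in different backgrounds. The difference of log2(FPKM + 1) on adding dcl2-1 was -0.98 in Col-0, but 1.52 in ein5-1 dcl4-2 and 1.34 in ski2-2 dcl4-2. The last was 0.17 under quantile normalization and 0.84 under equal FPKM sums. The difference between these effects was not tested, because there is 1 pooled value per genotype.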

How the results depend on the processing

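Counts of members called in the 4 ein5-1 dcl4-2 comparisons kept within 1.5 times under every alternative run: a pseudocount of 0.1, size taken from log2(FPKM + 1) instead of the authors' ratio, a minimum of 5 FPKM or none, no minimum ratio, quantile normalization, median-of-ratios scaling and, chosen after seeing the data, equal FPKM sums. Under quantile normalization 18 members were called lower in ski2-2 dcl4-2 against Col-0, 13 against ski2-2 and 19 against dcl4-2, 15 were called higher in ski2-2 dcl4-2 dcl2-1 against ski2-2 dcl4-2, and LHCA2 reversed to 0.019 in ski2-2 dcl4-2 against Col-0. Equal FPKM sums gave 23 lower against ski2-2. Of counts by size alone, quantile normalization gave 0 lower in ein5-1 and in ski2-2 against Col-0, 22 lower in ein5-1 dcl4-2 against ski2-2 dcl4-2, 0 higher in ein5-1 dcl2-1 against ein5-1, and 1 higher and 1 lower in ski2-2 dcl2-1 against ski2-2. Equal FPKM sums gave 0 lower in ein5-1 and in ski2-2, 17 lower in ein5-1 dcl4-2 against ski2-2 dcl4-2, 0 higher and 1 lower in ein5-1 dcl2-1 against ein5-1, and 1 higher and 1 lower in ski2-2 dcl2-1 against ski2-2. Median-of-ratios scaling gave 1 lower in dcl2-1 and 2 lower in ski2-2 against Col-0. Shares of all genes called are given only for the deposited values, not for these alternatives. The cause was not tested. No paired analysis was possible because the columns are pooled by genotype and carry no replicate numbers, so the replicate block and leaving out a replicate were not run.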

Other observations

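The genes around the 36 also moved when dcl2-1 was added to the double mutants. In the authors' deposited table all 8 LHCB1 and LHCB2 copies, 11 of 13 further antenna and subunit genes, 4 of 7 genes of the ferredoxin side, 11 of 13 targeting and assembly genes and 5 of 8 light acclimation genes rose in ein5-1 dcl4-2 dcl2-1 against ein5-1 dcl4-2. In ski2-2 dcl4-2 dcl2-1 against ski2-2 dcl4-2 the counts in the authors' deposited table were 6, 10, 5, 4 and 5. Of all genes 16.4% were called higher in the first comparison and 13.7% in the second. Under equal FPKM sums the counts in the same order were 8, 8, 4, 8 and 3 in the first comparison and 5, 8, 3, 2 and 2 in the second. Of the 6 greening regulators 2 rose and 2 fell in the first comparison, and 3 rose in the second, while under equal FPKM sums 1 was called higher in each. For the 2 that fell, no share of all genes called lower is given here.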
